A study of Rattus norvegicus with 24 samples.

Results

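Dbp, Nr1d1, Nr1d2, Per2 and Bmal1, 5 genes of the circadian clock and its output, were followed in the left ventricle of Dahl salt-sensitive rats, whose blood pressure is known to climb when they are fed salt. The members were all probe sets that the array platform's annotation assigns to these symbols, 8 of 8799 probe sets, for 5 of 4736 named genes. Dbp, Nr1d1 and Bmal1 each had 2 probe sets, and Nr1d2 and Per2 had 1 each. Per the labels, rats were obtained at 5 weeks of age, and at 6 weeks of age they began daily treadmill running (exercise), began a diet with 6% NaCl (high salt), or stayed sedentary on normal chow (control). Running lasted 6 weeks, with 3 progressive weeks followed by a steady 16 m/min for 90 minutes daily with the belt inclined by 5 degrees. All groups are of the same strain, so the controls are salt-sensitive rats too.

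The titles name 8 groups of 3 arrays, for all 3 treatments at 3 weeks and at 6 weeks but for controls and salt-fed rats alone at 15 weeks. The starting point of this week count, the hour at which hearts were taken and the animal behind each array are not in the labels. The p-values below therefore reflect only how much these arrays varied. The columns titled exercise at 3 weeks, numbers 2 and 3, held the same values at all 8799 probe sets as the columns titled control at 3 weeks, numbers 2 and 3, which leaves 22 distinct arrays. Since both are non-salt hearts under either title, the 4 distinct arrays of control and exercise at 3 weeks are treated as 1 non-salt group. Exercise can therefore not be compared with control at 3 weeks.

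In the mammalian clock the activators Bmal1 and Clock bind E-boxes and switch on the Per and Cry genes, whose proteins repress their own activators. The same activators drive the nuclear receptors Nr1d1 and Nr1d2, also called REV-ERB alpha and beta, which repress Bmal1, and Dbp, a transcription factor that carries the rhythm to D-box genes. In heart, as in other peripheral tissues, these transcripts are known for strong daily rhythms, with Bmal1 high when Dbp and Nr1d1 are low. The level on an array therefore depends on the hour at which the tissue was taken, and the hour and the treatment cannot be told apart with these labels.

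Promoter windows from 250 bases before to 50 bases after each RefSeq start site (build GRCr8) were searched on both strands for the clock's own elements, and the stretches with a match are shown because these genes act on each other through them. There was 1 window for each gene except Nr1d1, which had 2. The E-box was searched as CACGTG and the E-prime box, which differs from it in the last base, as CACGTT. The D-box was searched as TTATGTAA or TTACGTAA, and the REV-ERB/ROR element as TAGGTCA or TGGGTCA. Each line gives 30 bases, read 5′ to 3′ on the gene's strand, with the match in capitals.
Bmal1, REV-ERB/ROR element 16 bases before the start, plus strand of chr1:176766300-176766329: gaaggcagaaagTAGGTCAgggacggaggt
Per2, E-prime box 62 bases before the start, minus strand of chr9:99497038-99497067: aacgcgcgcggtCACGTTttccactatgtg
Per2, D-box 192 bases before the start, minus strand of chr9:99497167-99497196: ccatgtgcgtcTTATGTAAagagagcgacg
Nr1d1, first window, E-prime box on the opposite strand 174 bases before the start, minus strand of chr10:84231969-84231998: cgcatagagctcAACGTGcccgctgctgga
Nr1d1, second window, E-box 191 bases before the start, minus strand of chr10:84229628-84229657: tgtcagctcccaCACGTGtctggggatcct

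The windows of Dbp and Nr1d2 held none of these letters. Of all 33469 windows in the table, 6.418% held the E-box, 4.834% the E-prime box, 1.01% either D-box and 6.6% either REV-ERB/ROR element. A match describes the letters in a window, not a bound site.

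Each value is a deposited linear intensity, already scaled by the authors to a common trimmed mean per array (500.767 to 501.021). Differences are on the log2(intensity + 40) scale from 1 limma fit, with Benjamini-Hochberg adjustment over all 6555 probe sets tested, and called at an adjusted p under 0.05. Adding 40 shrinks the differences of dim probe sets. How often groups failed to overlap over all probe sets was not counted, so a lack of overlap is given below as a description only. The member genes and all gene lists were chosen with earlier results of these data known. Counts of members or listed genes beside the share over all probe sets are therefore descriptions too, and no support by themselves. Dbp and Nr1d1 each enter the member counts by both of their probe sets. The 13 cardiomyocyte marker genes on the array summed to between 220129.4 and 370293.3 on every array, so heart muscle transcripts were abundant on all of them. RNA quality differed between groups: the 3′ to 5′ intensity ratio of the Gapdh control probe sets was 1.58, 2.48 and 3.99 in the controls of 6 weeks, 1.09 to 1.58 in those of 15 weeks and 0.989 to 1.18 on all other arrays. Fewer cells of a type and less RNA per cell cannot be told apart in such bulk tissue.

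Dbp and Nr1d1 fell in high salt hearts of 6 and 15 weeks and in exercised hearts of 6 weeks, in each case against the controls of the same week, with mean intensities 2.58-fold to 9.21-fold lower. In exercise Dbp passed the threshold at 1 of its 2 probe sets. At 3 weeks neither differed past the threshold between high salt and non-salt hearts. Nr1d2 and Per2 fell in high salt hearts of 6 weeks against the controls of that week. Bmal1, dim on most arrays and tested only because it was high in later high salt hearts, was called higher at 6 weeks but not at 15. Against the controls of the other weeks, mostly those of 15, these last 3 calls and the Dbp call in exercise were lost. With an RNA quality ratio in the model all calls against the controls of 6 weeks were lost. The differences of Dbp and Nr1d1 in high salt and in exercise kept their direction in that fit, with larger SEs.

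**Figure D1:**
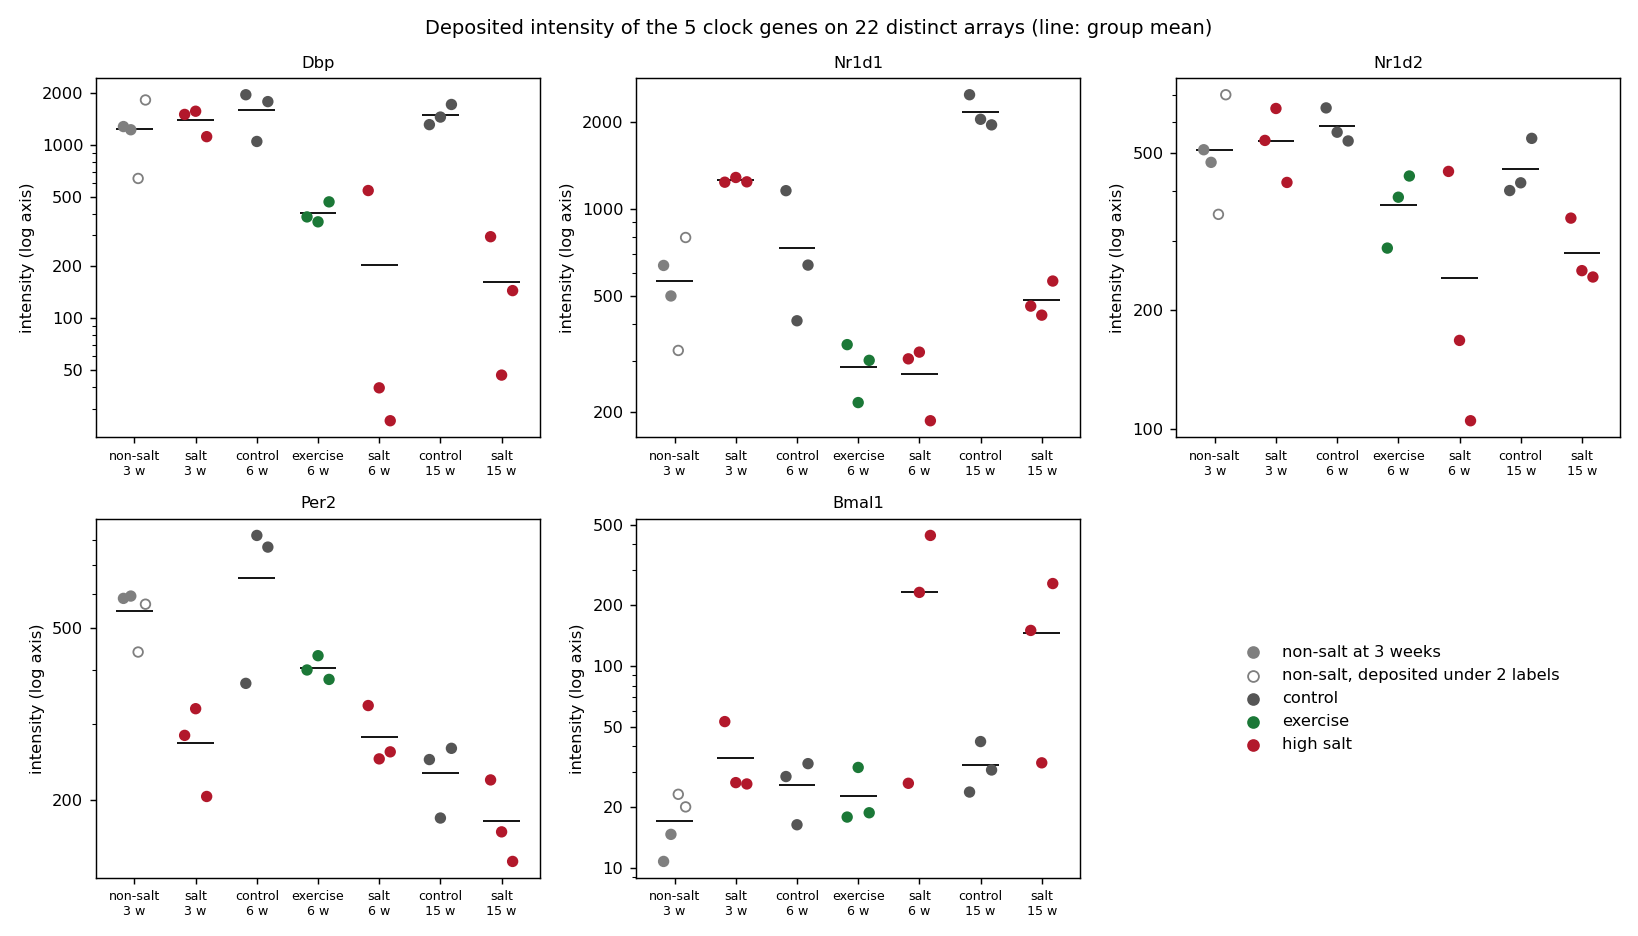
Deposited intensity (vertical log axis) of the brightest probe set of each gene on the 22 distinct arrays by group; points are arrays, lines group means, and open points the arrays deposited under both control and exercise. Dbp lies at or below 545.3 on all exercised arrays of 6 weeks and all high salt arrays of 6 and 15 weeks, and at or above 640.4 on the others, while Bmal1 exceeds 100 on 4 high salt arrays.

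Dbp, the output factor, was bright in hearts without salt or exercise. At its brighter probe set the controls read 1950.6, 1047.5 and 1780.1 at 6 weeks and 1310.3, 1449.1 and 1713.5 at 15 weeks. The non-salt arrays of 3 weeks read 1277.2 (control 1), 1224.2 (exercise 1), and 640.4 and 1819.4 (the arrays with both titles), and the high salt arrays of 3 weeks read 1501.0, 1566.3 and 1116.7. These 4 groups overlapped one another. The exercised hearts of 6 weeks read 383.9, 359.6 and 469.0, with a small spread. High salt hearts read 545.3, 39.5 and 25.5 at 6 weeks and 295.0, 46.8 and 144.0 at 15 weeks, so array 1 of each group stood highest. No array of these 3 groups reached the lowest of the other 13.

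In order of mean, Dbp rose from high salt at 15 weeks (161.9 ± 125.1, SD, n = 3) through high salt at 6 weeks (203.4 ± 296.1, n = 3) and exercise at 6 weeks (404.2 ± 57.4, n = 3) to non-salt at 3 weeks (1240.3 ± 482.0, n = 4). High salt at 3 weeks (1394.7 ± 242.9, n = 3), control at 15 weeks (1491.0 ± 204.8, n = 3) and control at 6 weeks (1592.7 ± 479.8, n = 3) followed. The only neighbours in this order whose arrays did not overlap were exercise at 6 weeks and non-salt at 3 weeks. The dimmer Dbp probe set gave the same break, between a highest exercised array of 125.9 and a lowest non-salt array of 201.5, although high salt array 1 of 6 weeks read 180.0. Across the 22 arrays the 2 probe sets of Dbp had r = 0.95 on the log2 scale, and r = 0.83 after subtracting group means.

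Nr1d1, the REV-ERB alpha repressor of Bmal1, differed among the control groups as well. Its brighter probe set read 2484.9, 2044.1 and 1955.5 in the controls of 15 weeks, and 1159.0, 412.0 and 641.4 in those of 6 weeks. The non-salt hearts of 3 weeks read 639.6, 501.8, 325.4 and 798.7, in the order control 1, exercise 1 and the arrays with both titles. The high salt hearts of 3 weeks read 1239.7, 1287.1 and 1243.3, all above every non-salt array of that week and all below the controls of 15 weeks. Exercise at 6 weeks read 340.8, 215.0 and 300.8 and high salt at 6 weeks 304.4, 321.1 and 186.1, the groups with the lowest means. High salt at 15 weeks read 462.9, 430.8 and 565.0, with no overlap with either.

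In order of mean the neighbours high salt and exercise at 6 weeks (270.5 ± 73.6 and 285.5 ± 64.3, SD, n = 3 each) overlapped. High salt at 15 weeks (486.2 ± 70.1, n = 3) stood clear of both, and overlapped non-salt at 3 weeks (566.4 ± 201.3, n = 4), which overlapped control at 6 weeks (737.5 ± 382.7, n = 3). High salt at 3 weeks (1256.7 ± 26.4, n = 3) and control at 15 weeks (2161.5 ± 283.6, n = 3) each stood clear of the group before. The dimmer probe set ran with the brighter one (r = 0.91 over 22 arrays, 0.72 within groups). It put control at 6 weeks (1107.7, 450.1 and 1072.4) level with high salt at 3 weeks (957.8, 697.2 and 992.6), so the place of the 6-week controls depended on the probe set.

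Nr1d2, the REV-ERB beta repressor, varied less. It read 650.8, 564.7 and 536.6 in the controls of 6 weeks, and 401.7, 420.3 and 544.8 in those of 15 weeks. In high salt hearts it read 538.3, 648.6 and 421.2 at 3 weeks, 449.2, 167.5 and 104.8 at 6 weeks, and 342.0, 251.7 and 242.5 at 15 weeks. The 2 lowest arrays of all, high salt arrays 2 and 3 of 6 weeks, were also the 2 lowest for Dbp at its brighter probe set, though not at its dimmer one. Exercised hearts of 6 weeks read 287.1, 386.4 and 437.3, and the non-salt hearts of 3 weeks between 349.6 and 702.8. Every group overlapped the next one in the order of means, from 240.5 ± 183.4 (high salt at 6 weeks, SD, n = 3) to 584.0 ± 59.5 (control at 6 weeks, n = 3).

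Per2, which encodes a repressor of the activator pair, followed another order. It read 372.3, 818.6 and 769.3 in the controls of 6 weeks, and 248.1, 181.7 and 263.4 in those of 15 weeks, with no overlap. Non-salt hearts of 3 weeks read 585.4, 592.7, 439.9 and 567.6, and exercised hearts of 6 weeks 399.8, 431.4 and 380.2. High salt hearts were low at all 3 times: 282.2, 325.3 and 203.8 at 3 weeks, 330.8, 249.0 and 258.5 at 6 weeks, and 222.6, 168.8 and 144.2 at 15 weeks. Array 1 of the 6-week controls was the lowest for Per2 and the highest for Nr1d1 within its group. In the order of means, high salt at 15 weeks (178.5 ± 40.1, SD, n = 3), control at 15 weeks (231.1 ± 43.4, n = 3), high salt at 3 weeks (270.4 ± 61.6, n = 3) and high salt at 6 weeks (279.4 ± 44.7, n = 3) overlapped with their neighbours. Exercise at 6 weeks (403.8 ± 25.8, n = 3) stood clear of high salt at 6 weeks below it and of non-salt at 3 weeks (546.4 ± 71.8, n = 4) above it. It overlapped control at 6 weeks (653.4 ± 244.7, n = 3), which had the highest mean and overlapped non-salt at 3 weeks too.

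Bmal1, the activator, lay near the bottom of the array's range. Each of its probe sets was below the array's own 25th percentile, a limit between 28.3 and 47.0, on 16 of the 22 arrays, though not on the same 16. At the brighter probe set the controls read 28.4, 16.4 and 32.9 at 6 weeks and 23.8, 42.3 and 30.6 at 15 weeks. Exercised hearts read 17.9, 31.5 and 18.8, the non-salt hearts of 3 weeks 10.8 to 23.2, and the high salt hearts of 3 weeks 53.1, 26.5 and 26.1. High salt hearts read 26.3, 231.3 and 442.5 at 6 weeks and 150.0, 33.2 and 255.8 at 15 weeks. So 4 of these 6 arrays stood above all other arrays, and array 1 of 6 weeks and array 2 of 15 weeks did not.

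Of those 4, 3 were also the brightest arrays at the dimmer Bmal1 probe set, which read 13.0, 77.5 and 214.6 in high salt hearts of 6 weeks and 40.1, 33.3 and 146.6 in those of 15 weeks. Elsewhere it read at most 43.9. The group means of the brighter probe set ran from 17.2 ± 5.5 (non-salt at 3 weeks, SD, n = 4) to 35.2 ± 15.5 (high salt at 3 weeks, n = 3), and then 146.3 ± 111.3 and 233.4 ± 208.1 in high salt at 15 and 6 weeks (n = 3 each); each group overlapped the next. Only 7 of the 8 probe sets were tested, because the dimmer Bmal1 probe set had a mean below the limit of 41.9. All groups but high salt at 6 and 15 weeks had means below that limit at the brighter probe set too, so it was tested only because it was high there, and its call is no support by itself.

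**Figure D2:**
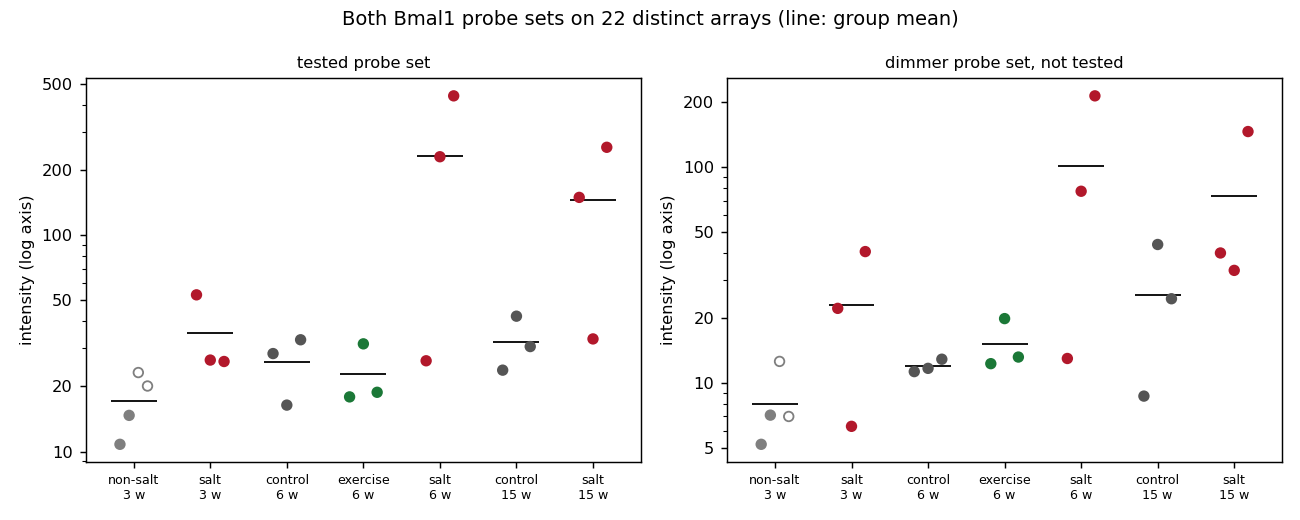
Intensity (vertical log axis) of the tested and the dimmer Bmal1 probe set by group on the 22 distinct arrays; points are arrays (open: deposited under both control and exercise), red points high salt arrays, lines group means. In high salt hearts of 6 weeks array 1 reads 26.3 and 13.0 while the other arrays read 231.3 and 442.5, and 77.5 and 214.6.

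At 15 weeks high salt hearts were compared with controls of the same week, the late stage of the salt diet. Dbp fell by 3.12 ± 0.56 (log2 difference ± SE, limma adjusted p = 0.00167) at the brighter probe set, from a mean of 1491.0 to 161.9, a 9.21-fold lower mean intensity. The dimmer probe set fell by 2.52 ± 0.37 (adjusted p = 0.000325). Nr1d1 fell by 2.07 ± 0.27 (adjusted p = 9.9e-05), a 4.45-fold lower mean, and by 1.42 ± 0.30 at its dimmer probe set (adjusted p = 0.00605). High salt and control arrays did not overlap at any of these 4 probe sets, a share not counted over all probe sets.

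Nr1d2 did not overlap either, but its log2 difference of -0.64 ± 0.31 did not pass (adjusted p = 0.265). Per2 differed by -0.31 ± 0.25 (adjusted p = 0.566) and Bmal1 by 1.16 ± 0.52 (adjusted p = 0.216). Thus 0 of 7 member probe sets rose, beside 3.28% of all probe sets tested, and 4 of 7 fell, beside 3.92%. The median difference over the 5 genes, at the brightest tested probe set of each, was -0.64, and over all probe sets -0.04. All 4 calls held with any 1 array left out and with the Gapdh ratio added to the model. Red blood cell markers were higher in the same high salt hearts, with 3 of 6 genes called and summed intensities of 53575.4 to 72399.2 against 31232.8 to 44974.5, and fibroblast matrix markers lower, with 4 of 9 called and sums of 11937.5 to 23330.8 against 27211.7 to 36448.8. Leukocyte markers had 1 of 4 tested called lower, with sums of 2820.8 to 3876.9 against 4231.7 to 4713.6. Atrial myocyte markers had 1 of 4 called higher, with sums of 36399.1 to 47623.1 against 15843.3 to 18054. The part of all these markers in the result was not tested.

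At 6 weeks Dbp, Nr1d1, Nr1d2 and Per2 were called in high salt against control. Bmal1 was called too, but it was tested only because it was high in later high salt hearts. Dbp fell by 3.45 ± 0.56 (limma adjusted p = 0.000786), a 7.83-fold lower mean, and fell by 2.27 ± 0.37 at the dimmer probe set (adjusted p = 0.000786). Nr1d1 fell by 1.24 ± 0.27 (adjusted p = 0.00528) and, at the dimmer probe set, by 1.48 ± 0.30 (adjusted p = 0.00313). Nr1d2 fell by 1.34 ± 0.31 (adjusted p = 0.00706) and Per2 by 1.05 ± 0.25 (adjusted p = 0.00887). Bmal1 rose by 1.65 ± 0.52 (adjusted p = 0.0377), although its arrays overlapped those of the controls. So 6 of 7 fell, beside 7.73% of all probe sets, and 1 of 7 rose, beside 6.64%. The 1 that rose was Bmal1, whose call is no support by itself. The median over the 5 genes was -1.24, and over all probe sets -0.15.

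All of these calls rest on the controls of 6 weeks, which had the highest Gapdh ratios of the series. When that ratio entered the model 0 of 7 were called. At the brightest probe sets the differences were then -3.24 ± 0.96 for Dbp (limma adjusted p = 0.286) and -1.99 ± 0.41 for Nr1d1 (0.0502). Nr1d2 differed by -1.29 ± 0.53 (0.46), Per2 by -0.37 ± 0.39 (0.833) and Bmal1 by 1.52 ± 0.89 (0.645). Each SE was larger than without the ratio. The difference shrank most for Per2 and grew for Nr1d1. The controls of 3 and 15 weeks, mostly those of 15, were then used instead, a choice made after the data were seen. Dbp (-3.34, limma adjusted p = 0.00488) and Nr1d1 (-2.43, adjusted p = 5.63e-05) were called at both probe sets. Nr1d2 (-1.05, 0.163), Per2 (-0.06, 0.964) and Bmal1 (1.64, 0.189) were not. The controls of 15 weeks themselves differed from those of 6 weeks, by 1.61 ± 0.27 for Nr1d1 at its brighter probe set and by -1.30 ± 0.25 for Per2. The values against them carry that difference. Bmal1 also lost its call when any 1 of the 3 controls or high salt array 2 or 3 was left out (adjusted p 0.0532 to 0.232) and with no filter on dim probe sets (0.0565), Per2 without control 2 or 3 (0.0629 and 0.0564), and Nr1d2 without high salt array 3 (0.0556).

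Markers of several cell types moved in the same comparison. Endothelial markers had 2 of 5 genes called lower, with sums of 1313.5 to 1956.1 in high salt against 1957.0 to 3048.5 in control, and smooth muscle markers 1 of 6 higher and 3 lower, with sums of 12245.4 to 13975.7 against 9751.9 to 16393.3. Cardiomyocyte markers had 3 of 12 called higher (285685.3 to 370293.3 against 225768.9 to 310430.1) and leukocyte markers 1 of 4 tested higher and 1 lower (5702.8 to 7714.1 against 4007.2 to 4310.1). In exercise against the same controls 2 of 5 endothelial markers were called lower, 1 of 6 smooth muscle markers higher and 3 lower, 3 of 12 cardiomyocyte markers higher and 1 of 4 leukocyte markers higher. Atrial myocyte markers had 2 of 4 called higher in high salt and 1 of 4 in exercise, and adipocyte markers 1 of 6 called lower in each. The part of these cell types in the results was not tested.

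**Figure D3:**
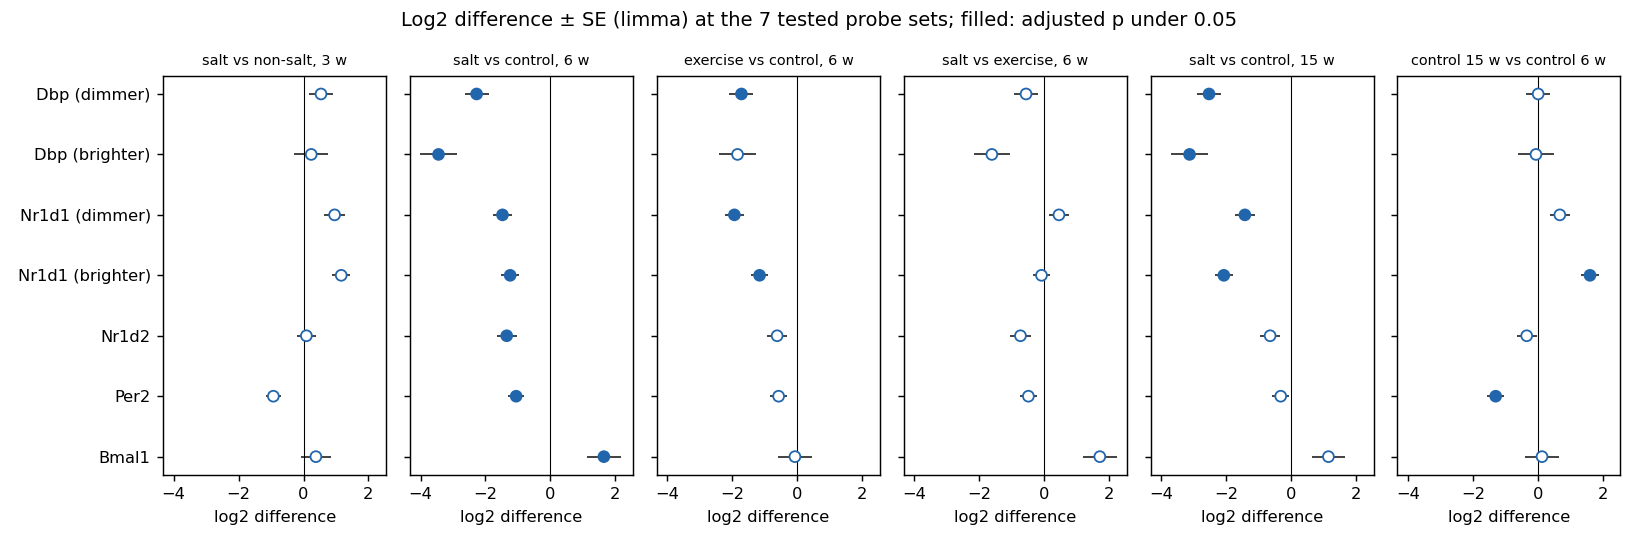
Difference on the log2(intensity + 40) scale, with its SE, at the 7 tested probe sets in 6 comparisons; filled points have a limma adjusted p under 0.05. Dbp and Nr1d1 lie left of 0 in high salt at 6 and 15 weeks and in exercise at 6 weeks, and the comparison of 3 weeks and that of high salt with exercise have no filled point.

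Exercise was compared with the same 3 controls at 6 weeks, so the 2 comparisons share their errors. Nr1d1 fell by 1.94 ± 0.30 at the dimmer probe set (limma adjusted p = 0.00136) and by 1.16 ± 0.27 at the brighter one (adjusted p = 0.0123). Dbp fell by 1.72 ± 0.37 at the dimmer probe set (adjusted p = 0.00736), and differed by -1.84 ± 0.56 at the brighter one, which missed the threshold (adjusted p = 0.0502) although all 3 exercised arrays lay below all controls. That probe set was called under 7 of the alternative settings, with adjusted p between 0.00616 and 0.0429. Nr1d2 differed by -0.62 ± 0.31 (adjusted p = 0.236), Per2 by -0.57 ± 0.25 (adjusted p = 0.172) and Bmal1 by -0.07 ± 0.52 (adjusted p = 0.952). In all 0 of 7 rose, beside 4.47% of all probe sets, and 3 of 7 fell, beside 3.36%.

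The median over the 5 genes was -0.62, and over all probe sets -0.12. When the Gapdh ratio entered the model none of the 7 was called, and Per2 turned to 0.15. At the brighter probe sets Dbp then differed by -1.62 ± 1.01 and Nr1d1 by -1.96 ± 0.43. Against the controls of 3 and 15 weeks the 2 probe sets of Nr1d1 were called (-2.28, adjusted p = 0.000367, and -2.35, adjusted p = 9.59e-05), and the dimmer one of Dbp was not (-1.70, adjusted p = 0.121). The brighter Nr1d1 probe set lost its call without exercise array 2 (limma adjusted p = 0.0708). Per2 gained a call without control 1 (-0.91, adjusted p = 0.0139). Control 1 was the lowest control for Per2, so leaving it out widens that difference in advance, and the call is no support.

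High salt and exercise were also compared directly at 6 weeks, which does not use the controls. None of the 7 passed: 0 rose, beside 0.0153% of all probe sets, and 0 fell, beside 0%, while 462 probe sets had an unadjusted p under 0.05. Dbp was lower in high salt by a log2 difference of -1.61 ± 0.56 (limma adjusted p = 0.534, 95% interval -2.78 to -0.43), and Bmal1 higher by 1.72 ± 0.52 (adjusted p = 0.375, interval 0.64 to 2.80). Nr1d1 differed by -0.08 ± 0.27 (interval -0.65 to 0.49), Nr1d2 by -0.73 ± 0.31 and Per2 by -0.48 ± 0.25, with no overlap of Per2's arrays. High salt array 1 stood with the exercised arrays for Dbp (545.3), Nr1d2 (449.2) and Bmal1 (26.3). Without it, Dbp differed by -2.61 (limma adjusted p = 0.0101) and Bmal1 by 2.53 (adjusted p = 0.0196). Both were then called, as they were with no other single array left out. Since this array went against the difference, leaving it out widens the difference in advance, and these calls are no support.

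At 3 weeks, early in the diet, high salt hearts were compared with the 4 non-salt arrays. No member passed: 0 of 7 rose, beside 0.137% of all probe sets, and 0 fell, beside 0.0153%, while 527 probe sets had an unadjusted p under 0.05. Nr1d1 differed upward by 1.16 ± 0.28 (limma adjusted p = 0.103) at the brighter probe set and by 0.96 ± 0.32 (adjusted p = 0.343) at the dimmer one. Per2 differed by -0.93 ± 0.22 (adjusted p = 0.111). For these 3 probe sets, and for Bmal1 (0.38 ± 0.45, limma adjusted p = 0.891), no high salt array overlapped a non-salt array. How many of all probe sets were apart in this way was not counted. The dimmer Bmal1 probe set did overlap. At the tested one, only high salt array 1 among these arrays read above its own 25th percentile. Dbp differed by 0.24 ± 0.52 and 0.54 ± 0.36 and Nr1d2 by 0.09 ± 0.29, each within the spread. Nr1d1 and Per2 were called in a fit of these 2 groups alone (adjusted p = 0.0349 and 0.0271).

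The change over time was read within the controls and within the high salt hearts. Between 6 and 15 weeks the controls' Nr1d1 rose by 1.61 ± 0.27 at the brighter probe set (limma adjusted p = 0.0211), a 2.93-fold higher mean, but differed by only 0.68 ± 0.30 at the dimmer one (adjusted p = 0.251). Per2 fell by 1.30 ± 0.25 (adjusted p = 0.0261), a 2.83-fold lower mean. Dbp differed by -0.05 ± 0.56 and 0.01 ± 0.37, with 95% intervals of -1.23 to 1.12 and -0.76 to 0.79. Thus 1 of 7 rose, beside 0.458% of all probe sets, and 1 of 7 fell, beside 0.412%. Both calls were lost without control 1 of 15 weeks or control 2 or 3 of 6 weeks, and with the Gapdh ratio in the model, and Per2's also without control 2 of 15 weeks.

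From 3 to 6 weeks of high salt, Nr1d1 fell by 2.09 ± 0.27 (limma adjusted p = 0.000924) and Dbp by 3.29 ± 0.56 and 2.41 ± 0.37 (adjusted p = 0.0142 and 0.00582). The dimmer Nr1d1 probe set differed by -1.57 ± 0.30 (adjusted p = 0.0506). So 0 of 7 rose, beside 0%, and 3 of 7 fell, beside 0.0763%, which is 3 of the 5 probe sets that fell on the whole array. Nr1d2 (-1.21 ± 0.31, adjusted p = 0.541) and Bmal1 (1.47 ± 0.52, adjusted p = 0.864) did not pass. Without high salt array 1 of 6 weeks 6 of 7 were called. That array went against the difference for Dbp, Nr1d2 and Bmal1, so leaving it out widens these differences in advance, and the calls gained are no support. Without high salt array 2 of 3 weeks, or array 2 or 3 of 6 weeks, 1 of 7 was called. From 6 to 15 weeks of high salt 0 of 7 rose, beside 1.65%, and 0 fell, beside 1.54%, while 845 probe sets had an unadjusted p under 0.05. There the brighter Nr1d1 probe set differed by 0.78 ± 0.27 (adjusted p = 0.16), with no overlap of arrays, and Dbp by 0.27 ± 0.56.

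The difference between salt and its comparison group was itself compared over time, which tests whether the early and later stages differ. At 15 weeks it did not differ past the threshold from 6 weeks at any member: 0 of 7 rose, beside 0.793%, and 0 fell, beside 0.809%, while 1040 probe sets had an unadjusted p under 0.05. The changes ran from -0.83 ± 0.39 (Nr1d1, brighter probe set, limma adjusted p = 0.304) to 0.74 ± 0.36 (Per2, adjusted p = 0.326). The contrasts with 3 weeks were added after the data were seen. In them the comparison group changes too, from non-salt hearts of 3 weeks, exercise among them, to controls alone. The part of that change was not tested. From 3 to 6 weeks the salt difference fell for 4 of 7 probe sets, beside 0.351%, and rose for 0, beside 0.412%. From 3 to 15 weeks it fell for 4 of 7, beside 1.48%, and rose for 0, beside 0.915%.

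These 4 were in each case the 2 probe sets of Dbp and the 2 of Nr1d1. For Nr1d1 the brighter probe set moved by -2.40 ± 0.40 to 6 weeks (limma adjusted p = 0.00642) and -3.23 ± 0.40 to 15 weeks (adjusted p = 6.44e-05), from 1.16 above non-salt at 3 weeks. For Dbp it moved by -3.68 ± 0.76 (adjusted p = 0.0256) and -3.36 ± 0.76 (adjusted p = 0.0157). Nr1d2 moved by -1.43 ± 0.42 (adjusted p = 0.0934) and -0.73 ± 0.42 (adjusted p = 0.522), Per2 by -0.13 ± 0.33 and 0.62 ± 0.33, and Bmal1 by 1.27 ± 0.66 and 0.78 ± 0.66, none of them past the threshold. With the 2 doubly titled arrays taken as exercise, so that only 1 control is left at 3 weeks, 0 of 7 and 1 of 7 were called, and with them left out the contrast of 6 with 3 weeks had 2. With 1 array left out the contrast to 6 weeks had between 1 and 6 calls: 1 without control 3 of 6 weeks, high salt array 1 of 3 weeks or array 2 or 3 of 6 weeks, and 2 without the doubly titled array 2 or high salt array 2 or 3 of 3 weeks. With the Gapdh ratio in the model the contrast to 6 weeks had 1 call and that to 15 weeks had 4.

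Array by array, Dbp and Nr1d2 ran together. The permutations behind the p-values below shuffled arrays over all groups, so genes that both differ between groups can reach a small p. They do not test the r left after subtracting group means. Over the 22 arrays, at each gene's brightest probe set, Pearson's r was 0.92 (permutation p = 1e-05, the smallest that 100000 permutations can give; 0.0001 adjusted over 10 pairs) and Spearman's rho 0.88 (permutation p = 1e-05, 0.0001 adjusted). Without the 2 arrays farthest from the median r was 0.87, after subtracting group means 0.87, and over the 16 arrays without high salt at 6 and 15 weeks 0.77. Dbp and Nr1d1 had r = 0.67 (permutation p = 0.0007, 0.00175 adjusted; rho 0.75, p = 0.00012, 0.0006 adjusted), 0.60 without the 2 farthest arrays, 0.46 within groups and 0.75 over the 16 arrays. Nr1d1 and Nr1d2 had r = 0.53 (permutation p = 0.00979, 0.0196 adjusted; rho 0.50, p = 0.0202, 0.0405 adjusted), 0.63 without the 2 farthest arrays, 0.40 within groups and 0.35 over the 16 arrays. Within groups the r of Dbp and Nr1d2 was thus higher than that of the pairs with Nr1d1, a comparison that was not tested. The high salt arrays of 6 weeks weigh heavily in it, at 545.3, 39.5 and 25.5 for Dbp and 449.2, 167.5 and 104.8 for Nr1d2. No r within groups was computed without them.

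Per2 ran less closely with the others. With Nr1d2 it had r = 0.49 (permutation p = 0.0198, 0.0283 adjusted; rho 0.53, p = 0.0128, 0.0319 adjusted), 0.55 without the 2 farthest arrays, 0.36 within groups and 0.25 over the 16 arrays. With Dbp it had r = 0.45 (permutation p = 0.0341, 0.0426 adjusted; rho 0.36, p = 0.105, 0.15 adjusted), 0.45 without the 2 farthest arrays, 0.29 within groups and -0.06 over the 16 arrays, so this relation did not hold without the later high salt hearts. With Nr1d1 it had r = -0.25 (permutation p = 0.27, 0.27 adjusted; rho -0.24, p = 0.273, 0.303 adjusted), -0.10 without the 2 farthest arrays and -0.32 within groups. Over the 16 arrays without high salt at 6 and 15 weeks that r was -0.64, with the Nr1d1-rich controls of 15 weeks at the low end of Per2.

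For Bmal1 the arrays fell into separate clusters, 4 high salt arrays between 150.0 and 442.5 and 18 between 10.8 and 53.1. So no r with another member over all arrays is given. The 4 arrays read 25.5 to 295.0 for Dbp and 104.8 to 342.0 for Nr1d2. Over the 16 arrays without high salt at 6 and 15 weeks, where Bmal1 was mostly below its array's 25th percentile, r was 0.26 with Dbp, 0.08 with Nr1d2, 0.45 with Nr1d1 and -0.54 with Per2, given as descriptions only. Low Dbp did not always go with high Bmal1: high salt array 2 of 15 weeks was low for both, at 46.8 and 33.2. High salt array 1 of 6 weeks (545.3 and 26.3) and the exercised arrays of 6 weeks also had Dbp below every control and low Bmal1. The exercised arrays read 359.6 to 469.0 for Dbp and 17.9 to 31.5 for Bmal1.

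**Figure D4:**
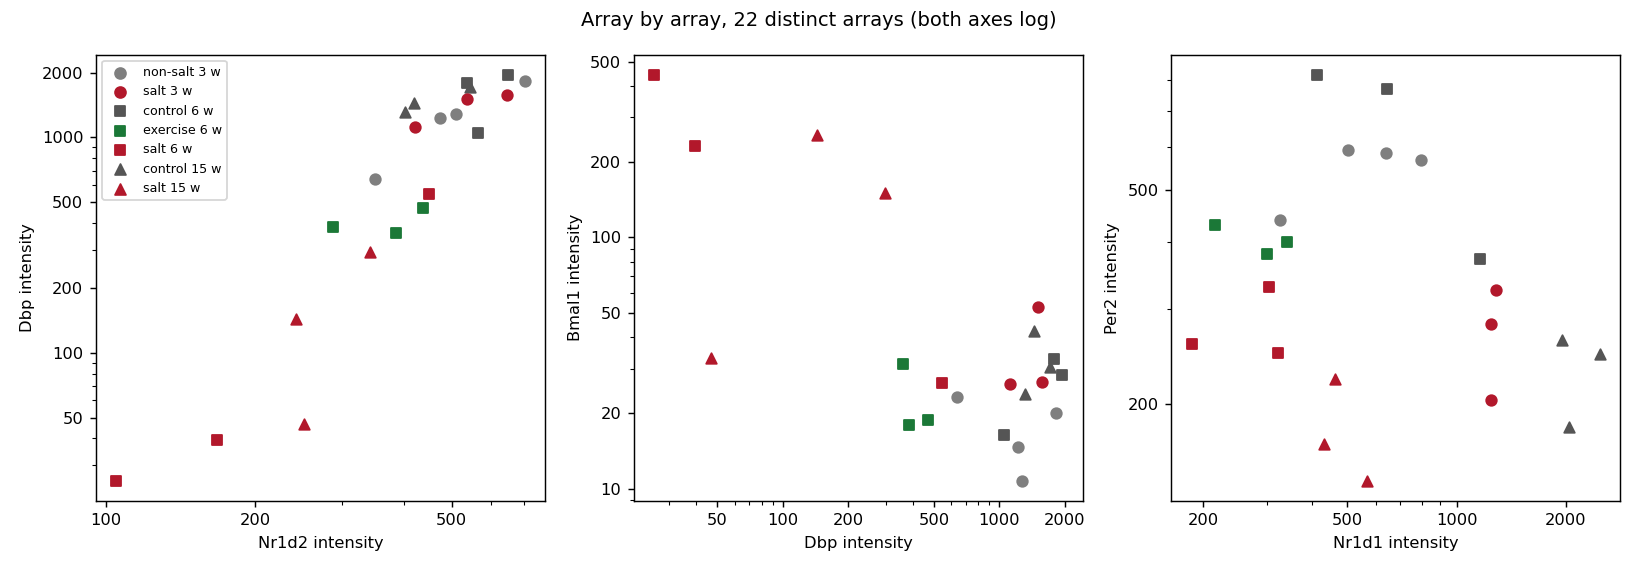
Intensities of pairs of genes on the 22 distinct arrays, log axes; each point is 1 array, its shape the week and its colour the group. Dbp and Nr1d2 lie along 1 line (r = 0.92), Bmal1 is high on 4 arrays with Dbp at or below 295.0, and Per2 and Nr1d1 show no common line (r = -0.25).

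The wider clock list held 33 genes of the core clock and its regulators, of which 15 were on the array and 13 were tested, the 5 genes above among them. At 15 weeks of high salt 0 rose and 2 fell, Dbp and Nr1d1, beside 3.28% and 3.92% of all probe sets, with a list median of -0.31 beside -0.04 over all. At 6 weeks 1 of 13 rose and 5 fell, beside 6.64% and 7.73% (median -0.50 beside -0.15). The 1 that rose was Bmal1, whose call is no support by itself. In exercise 0 rose and 2 fell, beside 4.47% and 3.36% (median -0.21 beside -0.12). The 1 further gene called was Gsk3b, a kinase that phosphorylates clock proteins. It fell by 1.06 ± 0.22 in high salt (limma adjusted p = 0.00313) and by 0.92 ± 0.22 in exercise (adjusted p = 0.0123), both against the controls of 6 weeks. The controls of 15 weeks differed from those of 6 weeks by -0.70 ± 0.22 for Gsk3b (adjusted p = 0.111). High salt differed from control at 15 weeks by only -0.23 ± 0.22 (adjusted p = 0.63). Tef and Hlf, which belong with Dbp to the PAR bZip factors, and Bhlhe40 and Bhlhe41, repressors of the activator pair, were not called in these 3 comparisons, nor were Csnk1d, Prkaa1 and Prkaa2. In the salt difference from 3 to 15 weeks, Bhlhe40 fell by 1.24 ± 0.32 (adjusted p = 0.0379) and Bhlhe41 fell by 1.55 ± 0.38 (adjusted p = 0.03), beside Dbp and Nr1d1.

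A second list held 42 genes known to be rhythmic in heart or linked to the clock, of which 24 were tested. At 15 weeks of high salt 4 of 24 rose and 3 fell, beside 3.28% and 3.92% of all probe sets (median -0.23 beside -0.04). Pdk4, the kinase that shuts pyruvate dehydrogenase, rose by 3.55 ± 0.53 (limma adjusted p = 0.000325), with the cell cycle inhibitor Cdkn1a (1.36 ± 0.38), the cold-inducible RNA-binding protein gene Cirbp (1.26 ± 0.29) and Nfkbia (0.96 ± 0.28). Ccnd1, a G1 cyclin, fell by 2.18 ± 0.27 (adjusted p = 5.88e-05), Hspa5, a chaperone of the endoplasmic reticulum, fell by 1.08 ± 0.21, and Slc2a4, the insulin-responsive glucose transporter, fell by 0.91 ± 0.21.

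At 6 weeks 3 of 24 rose and 1 fell in high salt, beside 6.64% and 7.73% of all probe sets (median -0.04 beside -0.15). In exercise 3 of 24 rose and 1 fell, beside 4.47% and 3.36% (median -0.09 beside -0.12). A single fall of 24 is near or below these shares. Pdk4 rose by 3.78 ± 0.53 in high salt (limma adjusted p = 0.000253) and by 4.16 ± 0.53 in exercise (adjusted p = 0.000753), and Alas1, the first enzyme of heme synthesis, by 1.95 ± 0.42 and 1.45 ± 0.42. Klf9, a transcription factor induced by glucocorticoids, fell by 1.47 ± 0.28 in high salt and fell by 1.001 ± 0.28 in exercise. Pik3r1 rose by 1.20 ± 0.32 in high salt and Ucp3, a mitochondrial carrier, by 1.24 ± 0.25 in exercise. These are values against the shared controls of 6 weeks, and high salt against exercise had 0 of 24 called in either direction, as did high salt against non-salt at 3 weeks.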

How the data were processed

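Total RNA of left ventricles was measured on an Affymetrix rat array. Linear intensities, deposited for each probe set and column, came to a common trimmed mean, and how they were summarised is not given in the sources used. The 24 columns were grouped by title. The 5 genes and all gene lists were chosen with earlier results of these data known. In R 4.3.3, limma 3.58.1 (lmFit, 1 mean per group; eBayes with trend) was run on log2(intensity + 40) over 20 distinct arrays, without the 2 deposited under both titles. All 22 were used where the non-salt hearts of 3 weeks entered. The 59 control probe sets were left out, and 6555 of 8740 probe sets with a mean at or above the 25th percentile (41.9) were tested. Probe sets with 1 symbol numbered 7018, with several 308 and with none 1473. For each gene the brightest probe set stood for it in lists and correlations (Python 3.11.15, SciPy 1.17.1, 100000 permutations). All member probe sets were named, of the lists the called genes, and by likeness the 5 highest and 5 lowest r to Dbp and to Bmal1. Alternatives were other added constants, no filter, quantile normalization, other uses of the identical columns, the Gapdh ratio as a model term, the replicate block, a fit of the compared groups alone and each array left out. Scripts were tested on simulated data. The number of arrays limits the precision.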

Additional observations from a re-analysis of the deposited data

Results flagged for a closer look

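Within the 4 non-salt arrays of 3 weeks, Per2 read 439.9 on the doubly titled array 2 and 567.6 to 592.7 on the others, a gap large for the range of the group. Only this group had enough arrays for the check, at its 8 member probe sets, and chance passes about 1 group in 20.

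The difference between high salt hearts and their comparison group changed over time at both probe sets of Dbp and of Nr1d1, by limma contrasts added after the data were seen. The comparison group was non-salt hearts, exercise among them, at 3 weeks and controls alone later. From 3 to 6 weeks it moved by -2.81 and -3.68 for Dbp and by -2.43 and -2.40 for Nr1d1 (dimmer and brighter probe set, log2 scale, adjusted p between 0.00642 and 0.0256). From 3 to 15 weeks it moved by -3.06 and -3.36 for Dbp and by -2.37 and -3.23 for Nr1d1 (adjusted p between 6.44e-05 and 0.0157).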

How the results depend on the processing

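All 4 calls of 15 weeks in high salt held under every alternative run. Counts out of 7 moved elsewhere. When the Gapdh ratio entered the model 0 were called in high salt at 6 weeks, in exercise and in control at 15 against 6 weeks, and 1 in the salt difference from 3 to 6 weeks. With only the compared groups fitted, 2 were called in high salt at 6 weeks, 2 at 3 weeks, 0 in control at 15 against 6 weeks, 1 in high salt at 6 against 3 weeks and 2 in the salt difference from 3 to 6 weeks. Against the controls of 3 and 15 weeks high salt at 6 weeks had 4. With the identical columns as exercise the salt differences from 3 weeks had 0 and 1, and with them left out that to 6 weeks had 2. Leaving out 1 array gave 0 to 2 in high salt against exercise, 0 to 2 in control at 15 against 6 weeks, 1 to 6 in high salt at 6 against 3 weeks, 1 to 6 in the salt difference from 3 to 6 weeks and 0 to 1 in that from 6 to 15 weeks. The causes were not tested.

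No called difference changed sign. Of uncalled ones, Per2 in exercise turned to 0.15 with the ratio in the model and 0.42 against the other controls, Bmal1 in exercise to 0.067 with quantile normalization, and Dbp in control at 15 against 6 weeks to -0.078 and 0.094 with the ratio. With 1 array left out, Bmal1 in exercise ran from -0.18 to 0.0076, Nr1d1 in high salt against exercise from -0.24 to 0.14, and Per2 in high salt at 6 against 3 weeks from -0.11 to 0.18. At 3 weeks Dbp ran from -0.038 to 0.45 and Nr1d2 from -0.064 to 0.25, and in control at 15 against 6 weeks Dbp ran from -0.19 to 0.19 and from -0.32 to 0.11.

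Replicate numbers did not pair the arrays (r of same-numbered deviations -0.27 to 0.24 over 45 pairs). The replicate block gave 4 calls in high salt at 15 weeks, 7 at 6 weeks, 4 in exercise, 2 in control at 15 against 6 weeks and 4 in high salt at 6 against 3 weeks. Bmal1's dimness on 16 of 22 arrays limits what can be said of it.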

Other observations

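Over the 22 arrays the named probe sets most like Dbp, of 5348 ranked, were those of Fam219b (r = 0.85), the tyrosine kinase gene Fyn (0.84), Casp2 (0.83), Serpinb9 (0.82) and the DNA methyltransferase gene Dnmt1 (0.80). The most unlike were those of the cell cycle inhibitor Cdkn1a (-0.82), Sh3kbp1 (-0.80), the fatty acid oxidation gene Echs1 (-0.78), Nmt1 (-0.73) and Nol3 (-0.72). For Bmal1 the most like were Egln3, an oxygen-sensing prolyl hydroxylase gene (0.77), Scn1a (0.71), Myl12a (0.70), Acadsb (0.70) and Cpz (0.69), and the most unlike Zfp455l1 (-0.79), Eif2b4 (-0.76), Taf1 (-0.76), Acsl5 (-0.74) and Cdc42ep3 (-0.73). Bmal1 was high on a few high salt arrays and dim on most others, so its r values mainly show which genes set those arrays apart. All of these r values are descriptions across arrays that share groups and treatments.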
